A study of Danio rerio with 9 samples.

Results

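Within each sorted population of zebrafish notochord sheath cells, some RNA-sequencing libraries carried a strong heat shock signature and others did not, and the description below compares the former with the latter. The members were chosen by the total count of each library: the 4 of 9 libraries above 60000000 counts (col9a2+ 3, double-positive 3, and entpd5a+ 2 and 3) were set against the 5 below (col9a2+ 1 and 2, double-positive 1 and 2, and entpd5a+ 1). The notochord sheath wraps the vacuolated cells at the centre of the notochord. Its cells came from fish of strain EK, 13 days after fertilization, and were sorted by fluorescence into cells marked for col9a2, a chain of cartilage collagen IX, cells marked for entpd5a, an enzyme that bone mineralization requires, and cells marked for both. The genotype label of all 9 libraries reads wild type, whereas the design text describes transgenic fish. No library was labelled as heat-treated, and nothing in the labels gives a sequencing date, a sort or a batch. The labels do not say whether replicates are separate fish or pools, so the tests measure the spread between these samples, which may be technical.

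The heat shock response is an ancient program in which heat shock factors, released from chaperones by unfolded protein, switch on genes for chaperones of the HSP70, HSP90, DnaJ and small HSP families, together with polyubiquitin. Immediate early genes such as those for JUN and ATF3 are switched on within minutes of many stimuli, cell dissociation among them. Stressed cells are also known to cut the making of ribosomes and bulk translation.

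The totals that chose the sides were 75825103, 74690602, 81471212 and 67788360 counts in col9a2+ 3, double-positive 3 and entpd5a+ 2 and 3. The libraries below held 39955994, 43459950, 41687120, 46025035 and 46708240 counts in col9a2+ 1 and 2, double-positive 1 and 2 and entpd5a+ 1. The lowest total above, 67788360, and the highest below, 46708240, are the values nearest to the division, and no test applies to them. Depth, any unrecorded batch and the heat shock signature run together along it and cannot be told apart. In the sentences that follow, levels are CPM (counts per 1000000 counts of the library) scaled by TMM factors, and they are given in the orders just used, so that the first 5 values are col9a2+ 1 and 2, double-positive 1 and 2 and entpd5a+ 1, and the last 4 are col9a2+ 3, double-positive 3, entpd5a+ 2 and entpd5a+ 3. Differences are log2 values, above minus below, with population held constant and with their standard errors. A gene passed the test when its p, adjusted over 19039 genes, was below 0.05. In bulk samples, fewer cells of a type and less RNA per cell cannot be told apart.

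In the whole comparison 671 genes were higher in the libraries above (3.52% of genes tested) and 1183 were lower (6.21%), together 9.74%. These called shares of all genes are the background for every list count below. The median difference of all genes was 0.11. Called or not, 3101 genes (16.3%) stood higher and 2738 (14.4%) lower without overlap inside every population. Over all 9 libraries, population aside, the sides did not overlap for 1083 higher genes (5.69%) and 1442 lower genes (7.57%). DESeq2 called 4054 genes, 50.1% of them higher, against 36.2% in the edgeR test, and a mean of at least 10 CPM gave 2234 calls with 46.2% higher. With single libraries left out the count lay between 421 (without entpd5a+ 1) and 2032 (without entpd5a+ 3); it was 573 without double-positive 3, 657 without col9a2+ 3, 1218 without col9a2+ 1 and 1223 without double-positive 2. Leaving out col9a2+ 3, double-positive 3 or entpd5a+ 1 removes the only library of its side in that population. Every one of the 1854 called genes kept its sign in each of these 9 fits. Each fit reuses the other libraries that gave the calls, so kept signs are no independent support. With the replicate number as a block, 0 genes were called, as described further below.

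The test of a difference between populations in the contrast called 0 of 19039 genes (0.0%) in edgeR, with 691 genes (3.63%) at an unadjusted p under 0.05, whereas DESeq2 called 223. It has 3 residual degrees of freedom, so genes that miss it may still differ. Deviations of the libraries from their population means, correlated across genes, were between -0.005 and 0.332 for pairs of libraries on the same side in different populations and between -0.327 and -0.067 for pairs on different sides. Deviations in a population sum to 0 for each gene, so the negative values follow in part from the positive ones. The points share the genes and are a description.

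**Figure D1:**
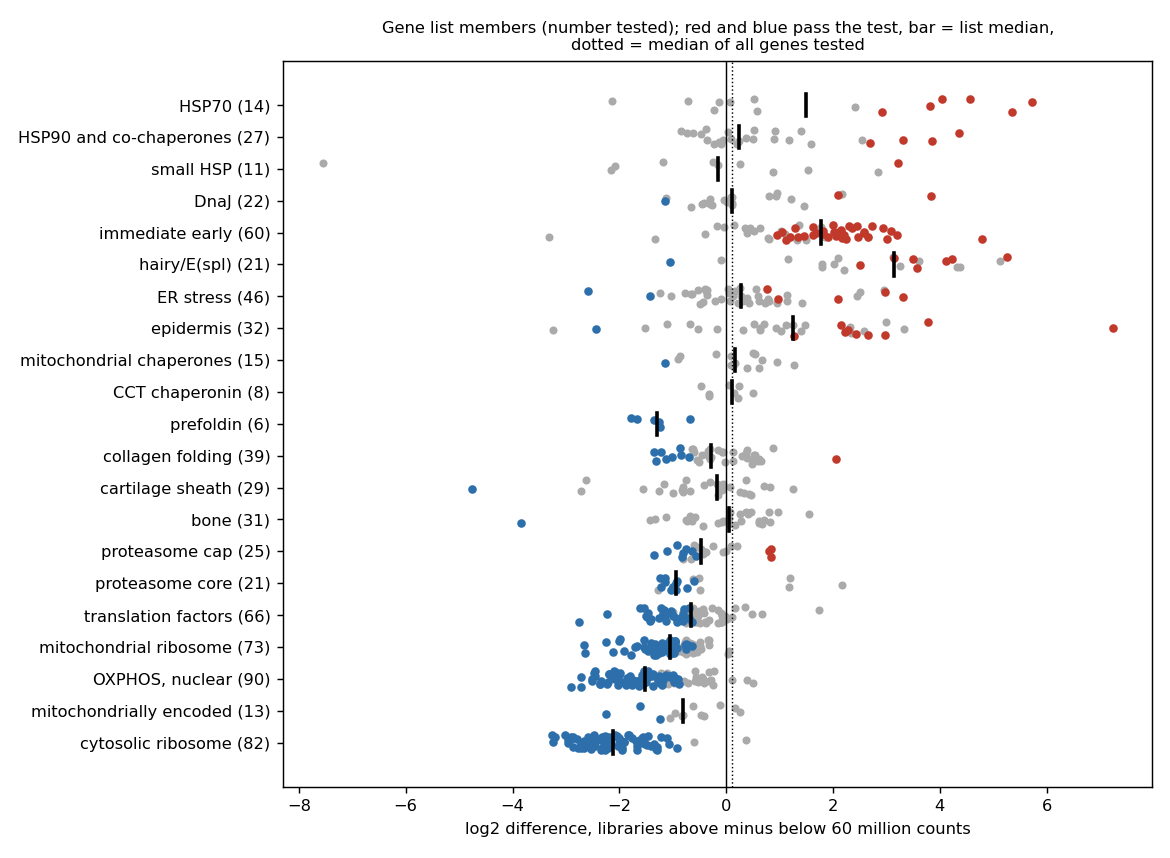
Log2 difference (x axis, libraries above minus below 60000000 counts) of every tested member of 21 gene lists (y axis, number tested in brackets); red and blue points passed the test, black bars are list medians and the dotted line is the median of all genes. Immediate early genes centre on 1.77 and cytosolic ribosomal proteins on -2.12, against 0.11 for all genes.

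The share of counts taken by 4 gene classes differed between the sides without overlap.

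**Figure D2:**
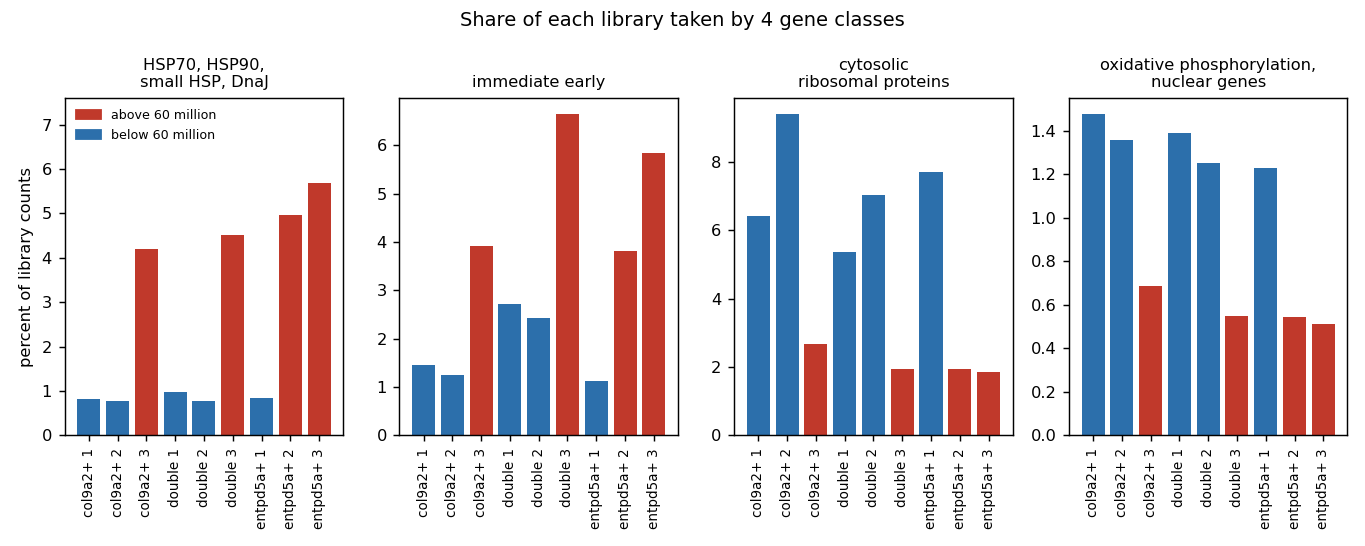
Percent of all counts of each library (y axis, from 0) in 4 gene classes, with the 9 libraries along the x axis and red bars for the libraries above 60000000 counts. The chaperone share is 4.19% or more in every red bar and 0.979% or less in every blue bar, and the ribosomal protein share is 2.66% or less in red and 5.38% or more in blue.

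The HSP70, HSP90, small HSP and DnaJ lists together took 0.830%, 0.766%, 0.979%, 0.765% and 0.847% of counts in the libraries below and 4.19%, 4.52%, 4.97% and 5.69% in those above. Cytosolic ribosomal proteins moved the other way, from 6.41%, 9.40%, 5.38%, 7.03% and 7.72% of counts to 2.66%, 1.93%, 1.93% and 1.86%. Nuclear genes of oxidative phosphorylation went from between 1.23% and 1.48% of counts to between 0.511% and 0.686%. None of these 3 shares overlaps between the sides, and, since the heat shock and ribosomal values were known when the sides were set out, they are a description with no test. Immediate early genes took 1.11% to 2.71% below and 3.82% to 6.65% above, again without overlap.

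Another 3 measures were tested by an exact permutation of sides inside populations (27 arrangements, smallest possible p = 0.037, two-sided, adjusted over 3 tests). The share of mitochondrially encoded genes was 3.24% ± 0.977 (SD, n = 4) above and 4.80% ± 1.57 (SD, n = 5) below, a mean within-population difference of -1.72 percentage points (exact permutation p = 0.185, adjusted 0.444); without entpd5a+ 1, whose share was 7.44%, it was -0.058. The share of the 50 most abundant genes differed by 0.16 points (exact permutation p = 0.963, adjusted 0.963). At a depth thinned to the smallest library, libraries above detected 20794 ± 946 genes (SD, n = 4) and those below 19826 ± 1330 (SD, n = 5; difference 826, exact permutation p = 0.296, adjusted 0.444).

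The inducible HSP70 genes were far higher in the libraries above in all 3 populations. The gene hsp70l, a heat-inducible cytosolic HSP70, stood at 277, 366, 909, 585 and 776 CPM below and at 20207, 27157, 27035 and 17961 CPM above. All 4 values above exceed the highest below by more than an order of magnitude, and the log2 difference was 5.34 ± 0.36. Its difference was 5.97 inside the col9a2+ population, 5.18 inside the double-positive and 4.86 inside the entpd5a+. Its copies moved with it. The hsp70.1 gene rose from 34.1, 39.5, 165, 56.1 and 68.3 to 1274, 1794, 1727 and 1333 CPM, a difference of 4.56 ± 0.38. For hsp70.3 the values were 131, 145, 291, 146 and 226 CPM below and 2695, 3497, 3304 and 3197 CPM above, with a difference of 4.05 ± 0.27. Double-positive 1 is the highest of the 5 libraries below in both copies and in hsp70l.

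Outside the HSP70 list, a gene that the name table calls HSPA2 (ENSDARG00000092362), an HSP70 family name, went from between 62.1 and 172 to between 1176 and 1706 CPM above, a difference of 3.93 ± 0.26. The low-level gene hspa1b lay at 0.626 to 3.502 CPM below and 16.3 to 62.5 CPM above (3.82 ± 0.59; its call was lost without double-positive 3, at 3.98, and the value was 4.47 without col9a2+ 3 and 3.15 without entpd5a+ 1). Near-identical HSP70 genes can share reads, and how the counting divided those reads was not traced, so the split among hsp70l, hsp70.1, hsp70.3, hspa1b and HSPA2 is uncertain. In contrast, the constitutive chaperone HSPA8 (ENSDARG00000068992), the housekeeping HSP70 of the cytosol, stood at 2522, 3221, 2576, 3328 and 3034 CPM and 3620.1, 4375, 3695 and 5735 CPM. It was higher in every population, by 0.51 ± 0.25, and did not pass the test. A further gene of that name (ENSDARG00000037403) was nearly silent below, with 0, 12, 3, 1 and 13 counts, and held 578, 39, 318 and 5942 counts above. Most of its counts come from entpd5a+ 3, and its difference of 5.72 ± 1.33 lost the call in 7 of the 9 fits with a library left out, entpd5a+ 3 among them. It was 6.64 without col9a2+ 2, 6.42 without double-positive 3, 4.79 without entpd5a+ 1 and 4.37 without entpd5a+ 3.

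Of 14 HSP70 genes tested, 6 were called higher and 0 lower, beside 3.52% and 6.21% of all genes; nothing is read from this count, since these genes were known to differ. Fits that each lacked 1 library gave 3 (without double-positive 3) to 6 (without entpd5a+ 2 and entpd5a+ 3) calls. Those not called include HSPA14, a ribosome-linked HSP70, at -0.22 ± 0.20, and the HSP110 gene HSPA4 with ID ENSDARG00000018989 at 0.07 ± 0.16. HSPH1, another HSP110 that recharges HSP70 with ATP, stood at 2.06 to 8.57 CPM below and 22.9 to 196 above (2.92 ± 0.73). Its call was lost without each of col9a2+ 1, col9a2+ 2, col9a2+ 3, double-positive 1, double-positive 3 and entpd5a+ 1 in turn, with differences of 3.56 without col9a2+ 3 and 2.26 without entpd5a+ 1.

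**Figure D3:**
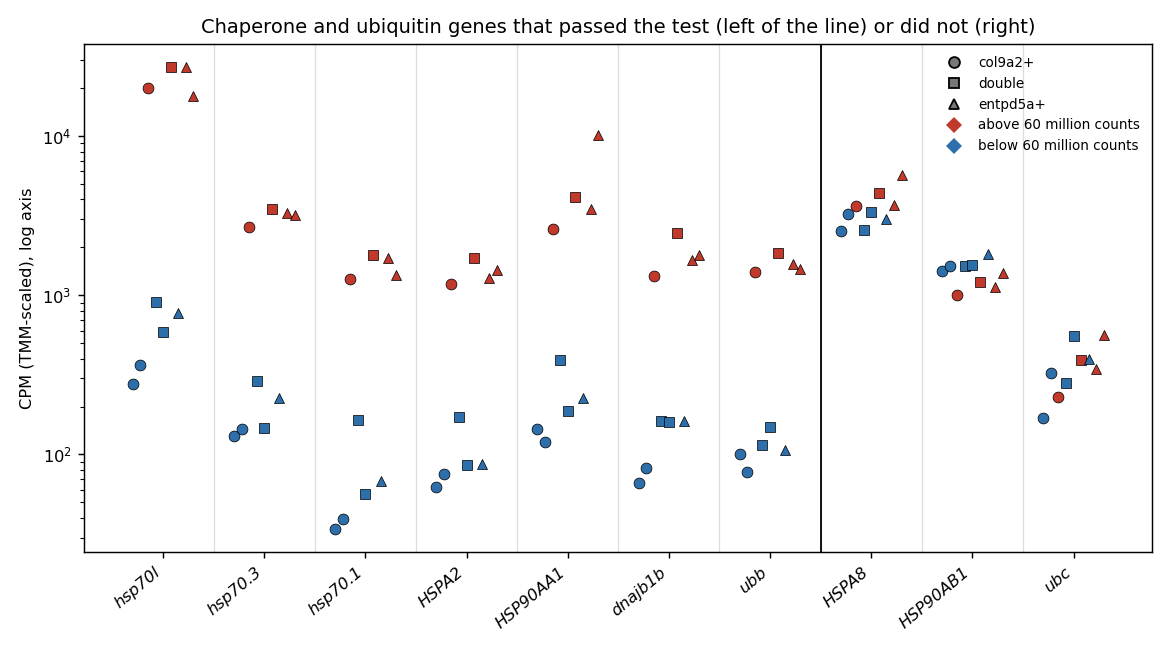
CPM on a log axis (y) of 10 chaperone and ubiquitin genes (x) in the 9 libraries, with red for libraries above 60000000 counts, blue for those below, and a symbol per population. The 7 genes left of the line show no overlap between red and blue, with hsp70l at 17961 CPM or more in red and 909 or less in blue. HSPA8, HSP90AB1 and ubc, right of the line, did not pass the test. HSPA8, higher in red, and HSP90AB1, lower in red, show no overlap either. Among all genes 5.69% stood higher and 7.57% lower without overlap.

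HSP90 genes divided in the same way into an inducible and a constitutive gene. HSP90AA1, the stress-inducible cytosolic HSP90, stood at 145, 119, 389, 187 and 226 CPM below and 2591, 4143, 3506 and 10209 CPM above, a difference of 4.35 ± 0.44. Its relative hsp90aa1.1 lay at 3.25 to 12.7 CPM below and 81.1 to 367 CPM above (3.86 ± 0.56). The constitutive HSP90AB1 was not higher: it stood at 1423, 1533, 1528, 1549 and 1805 CPM below and 1009, 1215, 1121 and 1372 CPM above, a difference of -0.47 ± 0.19 that did not pass the test. Of 27 genes for HSP90 and its co-chaperones, 4 were called higher and 0 lower, with a median of 0.24. Fits that each lacked 1 library gave 2 (without col9a2+ 3, double-positive 3 and entpd5a+ 1) to 6 (without entpd5a+ 3) calls. Beside the 2 HSP90 genes the calls were AHSA1, which stimulates the ATPase of HSP90, at 2.70 ± 0.51, and BAG3, which couples HSP70 to small HSPs and autophagy, at 3.31 ± 0.72. Their calls were lost without each of col9a2+ 3, double-positive 3 and entpd5a+ 1 (AHSA1, 2.16 to 3.10) and without each of col9a2+ 1, col9a2+ 3, double-positive 1, double-positive 3 and entpd5a+ 1 (BAG3, 4.04 without col9a2+ 3, 3.92 without double-positive 3 and 2.45 without entpd5a+ 1).

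The J-domain protein gene dnajb1b, the main HSP40 partner of inducible HSP70, was far higher in the libraries above. It stood at 65.99, 82.5, 163, 160.1 and 161 CPM below and 1317, 2472, 1675 and 1797 CPM above, with a difference of 3.84 ± 0.22 and no lost call with any library left out. The polyubiquitin gene ubb, which feeds protein degradation, followed it closely, from 100.3, 77.1, 114, 149.8 and 107 CPM to 1398, 1846, 1583 and 1461 CPM (3.87 ± 0.21, adjusted p = 0.000442). Heat shock genes were known to differ along the sides, so the values of both genes are a description. The other polyubiquitin gene, ubc, stood at 169 to 556 CPM below and 229 to 561 CPM above (-0.01 ± 0.31, not called). In the DnaJ list 2 genes were called higher (9.09%), 1 lower (4.55%) and 19 not, beside 3.52% and 6.21% of all genes. The second rise was dnaja1, another HSP70 partner, at 2.10 ± 0.47 (call lost without each of col9a2+ 1, col9a2+ 2, col9a2+ 3, double-positive 1, double-positive 3 and entpd5a+ 1, at 1.60 to 2.46), and the fall was DNAJC9, a histone chaperone, at -1.15 ± 0.24 (lost without each of col9a2+ 1, col9a2+ 3, double-positive 3 and entpd5a+ 1, at -1.33 to -0.92).

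Small heat shock proteins, which hold unfolded proteins without ATP, gave a single call among 11 tested. HSPB1 stood at 18.8, 22.2, 333, 63.04 and 97.9 CPM below and 186, 755, 1075 and 3650.5 CPM above, and its difference was 3.22 ± 0.71. Double-positive 1, at 333 CPM, lies above col9a2+ 3 at 186, so the sides overlap across populations though not inside any. The call was lost without each of col9a2+ 1, col9a2+ 2, col9a2+ 3, double-positive 3 and entpd5a+ 1, and the value was 3.89 without double-positive 3 and 2.60 without entpd5a+ 1. HSPB8, the partner of BAG3, was 1.54 ± 0.90 and not called. Of the 4 tested genes tied to heat shock factors, 2 were called lower and 2 were not called, and the highest difference was -0.05. The gene hsbp1b, for a factor-binding protein known in other species to restrain HSF1, fell from 87.7, 108, 95.3, 114 and 75.02 to 28.5, 37.4, 26.8 and 14.9 CPM (-1.70 ± 0.22). HSBP1 was also called lower (-1.45 ± 0.34), a call lost in 8 of 9 fits with a library left out (-1.48 to -1.34), and HSF2 was -0.76 ± 0.23, not called.

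Entpd5a+ 3 stood apart in a further set of chaperone partners. HSPA4 with ID ENSDARG00000004754, an HSP110 nucleotide exchange factor, stood at 221, 257, 280.3 and 4078 CPM in the libraries above and at 67.7 to 124 CPM below. HSPBP1, a further exchange factor of HSP70, held 56.1, 46.1, 71.5 and 705 CPM above and 12.1 to 19.2 below. In both genes the first 3 libraries above exceed all below, and entpd5a+ 3 lies far above those 3. STIP1, the adaptor between HSP70 and HSP90, held 318, 316, 357 and 1477 CPM above and 153 to 181 below. None of the 3 passed the test (differences 2.40 ± 0.97, 2.54 ± 0.82 and 1.40 ± 0.46). For CHORDC1 (ID ENSDARG00000003973), tomm34, the HSP90 immunophilin gene FKBP4 and the mitochondrial protease gene LONP1, entpd5a+ 3 alone was high, at 213, 153, 483 and 236 CPM. The highest value of any other library was 32.0, 26.4, 169 and 35.3 CPM in those genes. The cause of this was not tested.

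**Figure D4:**
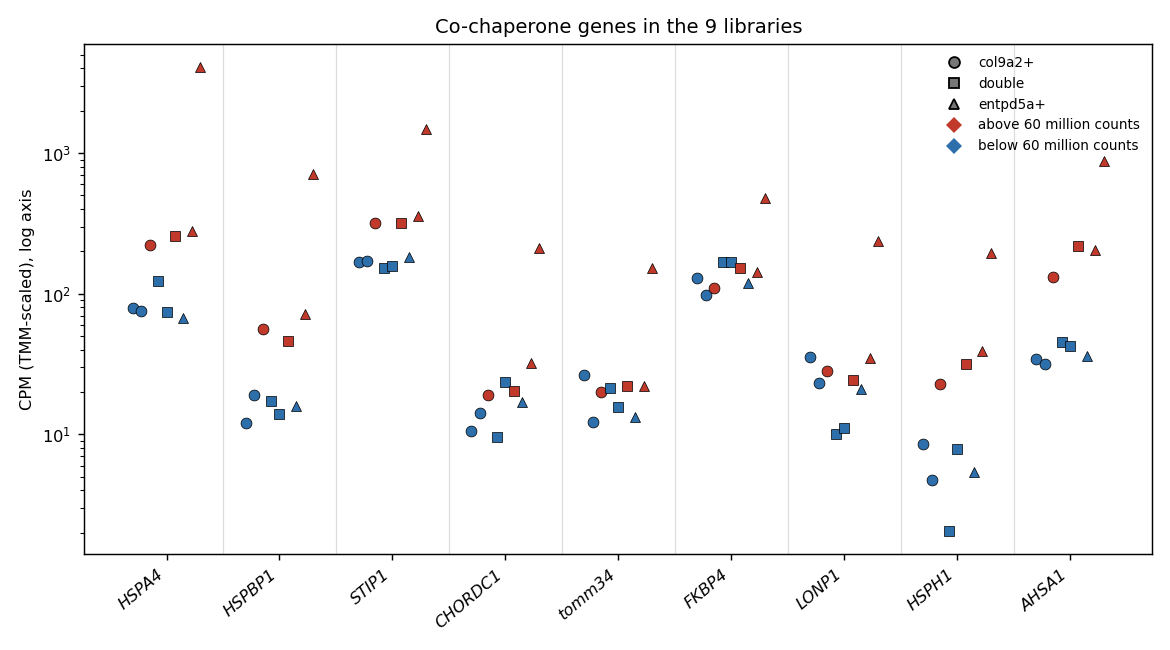
CPM on a log axis (y) of 9 co-chaperone genes (x) in the 9 libraries, coloured red above and blue below 60000000 counts, with a symbol per population. The red triangle highest in each gene is entpd5a+ 3, which reaches 4078 CPM in HSPA4, where the other libraries lie at 280 CPM or less.

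For mitochondrial chaperones the calls lay near the share of all genes. Of 15 mitochondrial chaperone and protease genes 0 were called higher (1 by DESeq2), and 1 (6.67%, beside 6.21% of all genes, and 3 by DESeq2), the matrix protease CLPP, was lower at -1.16 ± 0.20 (call lost without each of col9a2+ 3, double-positive 3 and entpd5a+ 1; -1.23 to -1.08). The mitochondrial folding partners HSPD1 and HSPE1 were at 0.16 ± 0.33 and -0.87 ± 0.25, and the mitochondrial HSP70 gene HSPA9 at 0.61 ± 0.30, none of them called.

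Protein folding of newly made tubulin and actin runs through prefoldin, which hands chains to the CCT chaperonin, and these complexes are given side by side. All 6 prefoldin genes were called lower, with a median of -1.30, and 0 of 8 CCT genes were called by edgeR in either direction (0 at an unadjusted p under 0.05 and 0 by DESeq2), with a median of 0.10 (the division into these complexes was chosen after their values were seen). PFDN4 stood at 73.6, 79.99, 74.9, 75.8 and 89.6 CPM below and 23.1, 22.9, 23.2 and 25.5 CPM above (-1.78 ± 0.15, adjusted p = 0.000805). CCT4 stood at 293, 283, 315, 284 and 420.4 CPM and 321, 314, 391 and 736 CPM (0.21 ± 0.23), with overlapping sides. Leaving single libraries out left 2 (without entpd5a+ 1) to 6 (without double-positive 1 and entpd5a+ 3) prefoldin genes called.

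Many immediate early genes rose. Of 60 tested, 35 were higher, 0 lower and 25 not called, with a median of 1.77, and 47 stood higher without overlap inside every population, beside 16.3% of all genes. With single libraries left out 17 (without double-positive 3) to 43 (without entpd5a+ 3) were called higher, and the median lay between 1.39 and 1.89. JUN, a core subunit of AP-1, stood at 455, 535, 1698, 1666 and 752 CPM below and 4378, 10504, 5042 and 7035 CPM above (2.94 ± 0.24, adjusted p = 0.000805). CCN1, a matricellular growth factor target, rose from 387, 339.8, 262, 246 and 179 to 2191, 3052, 1539.7 and 2068 CPM (3.19 ± 0.25, adjusted p = 0.000805). DUSP1, the phosphatase that ends MAP kinase signals, rose from 115, 170.0, 149, 234 and 123 to 1033, 1807, 738 and 1120.5 CPM (3.01 ± 0.26). These 3 genes show no overlap between the sides in any population, and across populations their lowest value above exceeds their highest below.

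Further rises were DUSP2 at 2.11 ± 0.19, JUNB (ENSDARG00000104773) at 2.47 ± 0.25 and ATF3, a stress factor of the ATF/CREB family, at 3.09 ± 0.43. ATF3 lay at 85.8 to 435 CPM below and 756 to 2340.1 above. The gene egr1, an immediate early factor induced by dissociation, was already at 982 to 3583 CPM below and at 1585 to 7779 CPM above, with overlap between sides across populations (0.96 ± 0.25, adjusted p = 0.0483, lost in 8 of 9 fits with a library left out, at 0.86 to 1.11).

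Genes of the hairy and Enhancer of split family, transcriptional repressors that include Notch targets and the segmentation clock gene her7, were prominent among other rises; this list was chosen after its values were seen. Of 21 tested, 7 were higher and 1 lower, with a median of 3.14, and single libraries left out gave 4 (without col9a2+ 3 and double-positive 3) to 8 (without double-positive 1) higher. HES4 stood at 222, 281, 429, 886 and 249 CPM below and 3159, 7470.1, 2484 and 3279 CPM above (3.56 ± 0.29, adjusted p = 0.000805). HES1 rose from between 139 and 307 to between 772 and 1526 CPM (2.50 ± 0.20). The her7 gene stood at 42.03, 56.1, 22.95, 47.8 and 3.87 CPM below and 315, 301, 30.6 and 67.5 CPM above (3.14 ± 0.35, adjusted p = 0.0019). Its sides overlap across populations, with less of it in entpd5a+ libraries, but inside each population the libraries above are higher. HEY1 followed at 3.49 ± 0.55, and HES6, a positive regulator of neurogenesis in other vertebrates, was the gene that fell (-1.06 ± 0.24, a call lost in 7 of 9 fits, at -1.22 to -0.87).

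The stress genes of the endoplasmic reticulum (ER) gave calls in both directions. Of 46 tested, 5 were higher (10.9%) and 2 lower (4.35%), beside 3.52% and 6.21% of all genes. Falls were thus no more frequent than among all genes. The median was 0.27, beside 0.11 for all genes. The rises included ppp1r15a and DDIT3, genes tied to the integrated stress response. Whether that response was active was not tested. In it, phosphorylated eIF2 restrains translation. The gene ppp1r15a, whose product removes that phosphate, stood at 50.6, 59.98, 164, 149 and 120.1 CPM below and 717, 1242, 807 and 1447 CPM above (3.32 ± 0.25, adjusted p = 0.000779). DDIT3, the factor CHOP, rose from between 26.8 and 62.4 to between 216 and 902 CPM (2.97 ± 0.38). HSPA5, the ER chaperone BiP, was called at 2.09 ± 0.48, but the call was lost without each of col9a2+ 2, col9a2+ 3, double-positive 2, double-positive 3 and entpd5a+ 1 (1.57 to 2.49). Its ER partner HSP90B1 was 1.14 ± 0.33 and XBP1 0.78 ± 0.32, neither called. P4HB, named in the table for the ER protein disulfide isomerase, fell from 127, 128, 85.5, 72.1 and 51.01 to 17.6, 10.9, 11.9 and 12.9 CPM (-2.59 ± 0.22, adjusted p = 0.000805), and SEC61B, a subunit of the translocation channel, fell by 1.42 ± 0.24 (call lost without each of col9a2+ 3 and double-positive 3, -1.34 to -1.23). Single libraries left out gave 2 (in 4 of 9 fits) to 9 (without entpd5a+ 3) rises.

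Oxidative stress genes showed 5 rises (16.7%) and 4 falls (13.3%) among 30, beside 3.52% and 6.21% of all genes. Leaving single libraries out gave 0 (without double-positive 3 and entpd5a+ 1) to 5 (without double-positive 2 and entpd5a+ 3) rises. TXN and SOD1, enzymes against oxidants, were at -1.27 ± 0.16 and -1.18 ± 0.17 (SOD1 lost the call without entpd5a+ 1, at -1.02). The regulator gene NFE2L2 rose by 1.25 ± 0.28 and its inhibitor KEAP1 by 1.45 ± 0.28, calls lost without each of col9a2+ 1, col9a2+ 2, double-positive 1, double-positive 3 and entpd5a+ 1 (0.96 to 1.295) and of double-positive 3 and entpd5a+ 1 (1.18 to 1.38). HMOX1, heme oxygenase, was 0.58 ± 1.13, not called, with 39.02 CPM in entpd5a+ 3 and 14.7 CPM or less elsewhere. Outside that list, PLK3, a stress-responsive kinase, rose by 1.61 ± 0.22 (adjusted p = 0.00362) and SESN1, an antioxidant regulator of growth signalling, by 1.89 ± 0.29 (lost without col9a2+ 3, at 1.85). In the ubiquitin and autophagy list 4 were higher and 5 lower of 40, with 0 (without col9a2+ 3 and entpd5a+ 1) to 8 (without entpd5a+ 3) falls when single libraries were left out. After ubb came nbr1a, an autophagy receptor, at 1.73 ± 0.22.

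The cytosolic ribosomal protein genes fell nearly as a whole. Of 82 tested, 80 were called lower and 0 higher, 81 stood lower without overlap inside every population (14.4% of all genes did), and the median was -2.12. As with the heat shock genes, the fall was known and nothing is read from the count. With single libraries left out 41 (without entpd5a+ 1) to 80 (without entpd5a+ 3) were called lower and the median stayed between -2.27 and -1.95. RPL38, of the large subunit, stood at 332, 1088, 278, 604 and 400.3 CPM below and 66.9, 53.6, 42.98 and 36.3 CPM above (-3.26 ± 0.42). RPS29, of the small subunit, stood at 399, 1105, 313, 559 and 607 CPM and 72.6, 64.1, 52.5 and 47.4 CPM (-3.24 ± 0.38). Every library above is lower than every library below in both genes, and col9a2+ 2 is the highest of the libraries below.

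RPL29 was at -3.01 ± 0.31 and RPS12 at -2.96 ± 0.37. RPL3, among the longest ribosomal proteins, stood at 2101, 3097, 2146, 3526 and 3260.2 CPM below and 1867, 1949, 1627 and 2183 CPM above (-0.60 ± 0.26, not called). FAU, a ribosomal protein made as a fusion with a ubiquitin-like domain, was at -2.22 ± 0.30. Of 66 translation factor genes 27 were lower and 0 higher, with a median of -0.66 and 5 (without entpd5a+ 1) to 34 (without entpd5a+ 3) calls when single libraries were left out. RACK1, a scaffold on the small subunit, was at -1.46 ± 0.19 and EIF1B, a start-codon selection factor, at -1.62 ± 0.20.

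Many nuclear genes of the respiratory chain and of the mitochondrial ribosome fell too. Of 90 nuclear genes of oxidative phosphorylation 68 were lower and 0 higher, with a median of -1.53, and 50 to 69 were lower with single libraries left out. The ATP synthase membrane subunit gene atp5mf stood at 156, 203, 159, 164 and 127 CPM below and 36.4, 35.05, 29.8 and 27.7 CPM above (-2.22 ± 0.17, adjusted p = 0.000779). NDUFB2, an accessory subunit of complex I, was at -1.87 ± 0.16, and atp5mj at -2.71 ± 0.22. SDHA, the large flavoprotein of complex II, was higher in every population and not called (0.49 ± 0.17), and NDUFS1, the largest subunit of complex I, was at 0.11 ± 0.17. Of 73 mitochondrial ribosomal proteins 49 were lower and 0 higher, with a median of -1.05. The falls numbered 12 (without entpd5a+ 1) to 48 (without entpd5a+ 3) when 1 library was left out. The gene mrpl52 fell from between 18.7 and 34.9 to between 2.82 and 4.66 CPM (-2.64 ± 0.25).

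Of 13 genes encoded in the mitochondrial genome, 3 fell (23.1%, beside 6.21% of all genes). MT-ND3, of complex I, stood at 177, 279, 139, 209.7 and 237 CPM below and 56.4, 53.6, 32.1 and 25.9 CPM above (-2.25 ± 0.30, adjusted p = 0.00332). MT-ND1 and MT-ND6 were also called lower, at -1.61 ± 0.33 and -1.25 ± 0.28. The former lost the call without each of col9a2+ 3, entpd5a+ 1 and entpd5a+ 2 (-1.80 to -1.03) and the latter without each of col9a2+ 1, col9a2+ 3, double-positive 3, entpd5a+ 1 and entpd5a+ 2 (-1.54 to -0.83). MT-CO1, the catalytic subunit of cytochrome oxidase, was at 0.37 inside col9a2+, 0.59 inside double-positive and -1.25 inside entpd5a+ cells (-0.11 ± 0.36 in all, not called). The other 9 genes were not called either.

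In larger complexes the subunits did not all move in one direction. In the proteasome 22 of 46 genes were lower and 3 higher, and single libraries left out gave 1 (without entpd5a+ 1) to 23 (without entpd5a+ 3) falls. PSMB3, of the catalytic core, fell from 127, 111, 128, 144 and 135 to 51.9, 53.6, 58.6 and 66.4 CPM (-1.22 ± 0.16, adjusted p = 0.00306). The 3 that rose are PSMD1 and 2 genes named PSMD2, the large scaffold subunits of the cap; how reads were split between the like-named genes was not traced. PSMD2 (ENSDARG00000099653) stood at 54.1, 51.6, 82.8, 68.3 and 47.1 CPM below and 84.4, 129.8, 104 and 91.3 CPM above (0.84 ± 0.16; call lost without each of col9a2+ 3, double-positive 3 and entpd5a+ 1, 0.73 to 0.92). PSMD1 was at 0.80 ± 0.18, a call lost in 6 of 9 fits (0.68 to 0.90). In RNA polymerase II, a list chosen after its values were seen, 9 of 11 subunits were lower, with 3 (without double-positive 3 and entpd5a+ 1) to 8 (without double-positive 1, double-positive 2 and entpd5a+ 3) falls when single libraries were left out. The small subunit POLR2K fell from between 22.3 and 46.7 to between 3.67 and 5.94 CPM (-2.84 ± 0.27), and the large subunits POLR2A and POLR2B were at 0.08 ± 0.27 and 0.53 ± 0.17, not called. RPL3, SDHA, NDUFS1, PSMD1, POLR2A, POLR2B and POLR2K were picked after their values were seen. Transcript lengths were not analysed here, so nothing is read from the subunit sizes named.

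**Figure D5:**
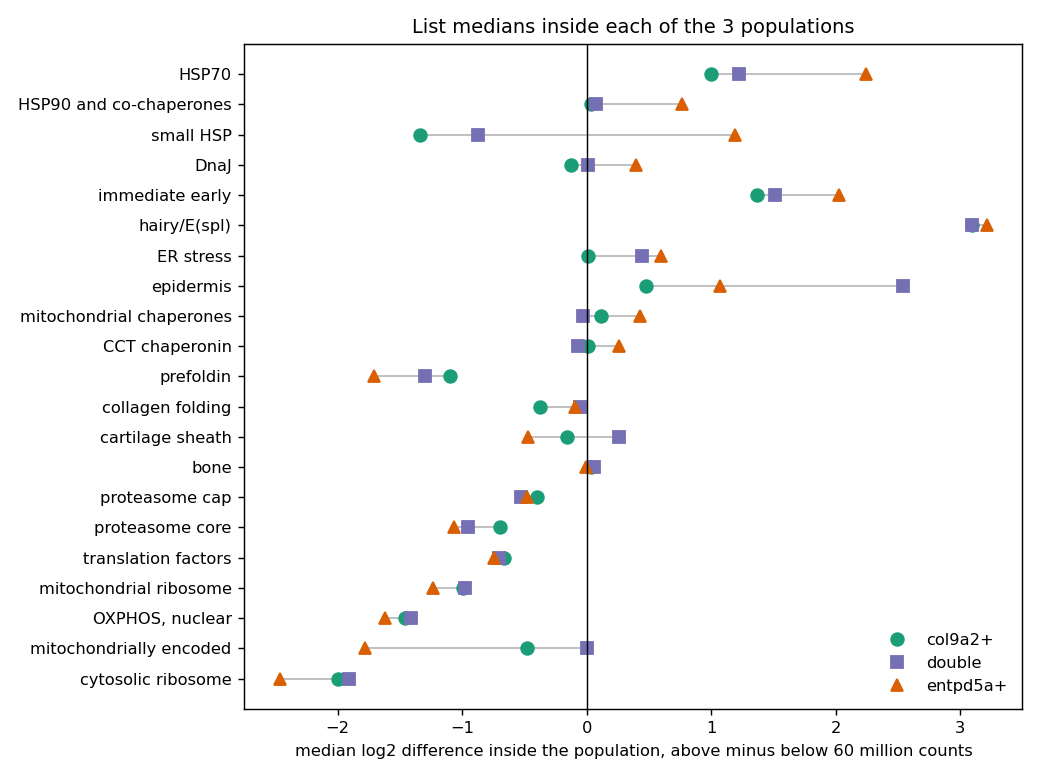
Median log2 difference (x axis, above minus below 60000000 counts) of 21 gene lists (y axis) inside each of the 3 populations, with a symbol per population and a grey line from the lowest to the highest. Cytosolic ribosomal proteins lie at -1.996, -1.91 and -2.47 in col9a2+, double-positive and entpd5a+ cells, and immediate early genes at 1.36, 1.51 and 2.03.

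Inside the populations the lists kept their direction for immediate early genes (medians of 1.36, 1.51 and 2.03 in col9a2+, double-positive and entpd5a+ libraries) and for ribosomal proteins (-1.996, -1.91 and -2.47). HSP70 genes had medians of 1.00, 1.23 and 2.24. Small HSPs had medians of different sign, -1.34, -0.87 and 1.19. The test of a difference between populations works gene by gene and does not judge these medians. It called 0 genes in edgeR and 223 in DESeq2. Whether the medians differ beyond the spread was not tested.

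Sheath cells secrete collagen, and part of a list of collagen chaperone and secretion genes was lower. Of 39 collagen chaperone and secretion genes 8 were lower (20.5%) and 1 was higher (2.56%), beside 6.21% and 3.52% of all genes. The rise was SERPINH1 (ENSDARG00000019949), the collagen-specific chaperone HSP47, itself a heat shock gene: it stood at 636, 397, 314, 158 and 881 CPM below and 1418, 989.8, 4028 and 7141 CPM above (2.06 ± 0.37, adjusted p = 0.011), and lost the call without each of double-positive 3 and entpd5a+ 1 (1.78 to 2.06). The falls include FKBP7, an ER prolyl isomerase, at -1.32 ± 0.20, sec23a, a coat subunit of ER export vesicles, at -1.22 ± 0.19, and kdelr2a, the receptor that returns ER proteins, at -1.12 ± 0.20. The last 2 lost the call without each of col9a2+ 3 and double-positive 3 (-1.17 to -1.14) and of col9a2+ 3, double-positive 3 and entpd5a+ 1 (-1.18 to -1.02). Single libraries left out gave 1 (without col9a2+ 3 and double-positive 3) to 9 (without entpd5a+ 3) falls.

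Calls among markers of the sheath stood beside 3.52% higher and 6.21% lower among all genes, and nothing particular to the markers is read from them. Of 29 cartilage-like genes of the sheath 0 were higher and 1 (3.45%) was lower, of 31 bone genes 0 and 1 (3.23%), and of 19 notochord genes 2 (10.53%) and 0. DESeq2 called 0 and 5, 2 and 3, and 5 and 1 of these genes higher and lower. The sort genes were not called: COL9A2 was at -0.81 ± 0.52 and ENTPD5 at -0.73 ± 0.36. COL9A2 stood at 429 CPM in entpd5a+ 1 and at 73.1 and 64.7 in entpd5a+ 2 and 3, so that inside this population the library below holds more of the other population's sort gene. The called cartilage gene MIA, a secreted cartilage protein, is likewise lower in entpd5a+ 2 and 3 than in entpd5a+ 1. Its levels were 583, 475, 2.86, 0.729 and 67.7 CPM below and 89.96, 0.0295, 0.0694 and 1.23 CPM above (-4.75 ± 1.09). It was thus lower above inside the col9a2+ population too. In double-positive cells MIA was near the floor, at 2.86 and 0.729 CPM below and 0.0295 above, so little can be read from that population. Its call was lost without each of double-positive 3, entpd5a+ 1 and entpd5a+ 3 (-4.61 to -3.38), and it was -5.34 without col9a2+ 2, -6.53 without col9a2+ 3, -3.38 without entpd5a+ 1 and -4.10 without entpd5a+ 2. Inside the populations MIA was at -2.56, -5.83 and -6.72, whereas COL9A2 was at -0.04, 0.25 and -2.64 in col9a2+, double-positive and entpd5a+ cells.

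Other large falls are given with their levels. The rule that named genes by the size of their fall required lower values above inside every population, so nothing is read from that trait. The matrix gene tnxba, a tenascin X, stood at 26.1 CPM in entpd5a+ 1 and at 0.439 and 0.167 in entpd5a+ 2 and 3 (-4.40 ± 0.87; call lost without each of double-positive 3, entpd5a+ 1 and entpd5a+ 2, -4.40 to -3.04, and -6.02 without col9a2+ 3 and -3.04 without entpd5a+ 1). Inside col9a2+, double-positive and entpd5a+ cells it was at -2.59, -4.47 and -6.40. In double-positive cells it was barely detected, at 1.23 and 0.156 CPM below and 0.0295 above, so little can be read from that population. For fgfbp2b, an FGF-binding protein gene, the entpd5a+ levels were 30.7, 0.994 and 3.19 CPM (-3.07 ± 0.58; call lost without each of double-positive 3 and entpd5a+ 1, -2.95 to -2.46, and -3.96 without col9a2+ 3 and -2.46 without entpd5a+ 1). MFAP4, a microfibril protein, was at -3.61 ± 0.39, a call that no left-out library ended, with 61.2, 57.05, 0.0224, 0.052 and 2.95 CPM below and 5.56, 0, 0.289 and 0.121 above. It was barely detected in double-positive cells, at 0.0224 and 0.052 CPM below and 0 above, so nothing can be read from that population. The bone gene scpp5, a secretory calcium-binding phosphoprotein, stood at 387 CPM in entpd5a+ 1 and at 11.5 and 38.98 in entpd5a+ 2 and 3 (-3.84 ± 0.66; lost without each of col9a2+ 3 and entpd5a+ 1, -3.79 to -3.48). Inside the 3 populations it was at -4.90, -2.94 and -3.94, in the same order. The col9a2+ and double-positive libraries below held 8.67 CPM of it or less, so little can be read from those populations. FOXA2, a pioneer factor of the axial midline, was among the 2 notochord genes called higher, at 2.08 ± 0.41 (lost without each of col9a2+ 3, double-positive 3 and entpd5a+ 1, 1.86 to 2.19). The brachyury gene tbxta was at 1.43 ± 0.46, not called.

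Markers of other cells were examined beside these results. Endothelial, erythroid, leukocyte, muscle and neural lists had 0 calls by edgeR in either direction (22, 10, 20, 24 and 24 genes tested), and the pigment list 1 fall of 15. Genes that averaged at least 10 CPM numbered 3, 2, 2, 11, 5 and 1 in these lists, beside 24 of 32 epidermal genes. Most genes of these lists lay lower, so the lack of calls does not show that these cell types did not differ. At an unadjusted p under 0.05 the leukocyte list had 4 genes higher and 1 lower, the neural list 1 and 1, the endothelial list 1 and 0, and the erythroid and muscle lists 0 and 1 each. DESeq2 called 3 leukocyte genes and 1 endothelial gene higher, and 1 gene lower in each of the 5 lists. The summed level of the endothelial list ranged from 77.9 to 205 CPM above and from 55.1 to 547 below, and that of the leukocyte list from 30.6 to 314 above and from 15.9 to 132 below. Among the epidermal genes 9 were higher (28.1%) and 1 lower (3.125%) of 32, beside 3.52% and 6.21% of all genes. Their median was 1.26, although their summed level overlapped, at 6522 to 16165 CPM above and 4799 to 18898 below. The rises include TP63, the master factor of basal epidermis, from between 0.716 and 8.24 to between 12.3 and 35.6 CPM (2.65 ± 0.37, and 2.05 without double-positive 3), and the keratin gene krt17, from between 2.97 and 26.5 to between 45.1 and 214 CPM (2.98 ± 0.35). The fall was icn, which encodes an S100-type calcium-binding protein, from 2151, 2378, 277, 252 and 778 to 317, 67.2, 161 and 111 CPM (-2.43 ± 0.24). The rises numbered 3 (without double-positive 3) to 10 (without entpd5a+ 3) when 1 library was left out. What part epidermal cells have in the other differences was not tested.

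Transcripts of the exocrine pancreas, which sheath cells are not known to make, followed the sides as well (a list chosen after its values were seen). Its summed level was 3566 to 8288 CPM above and 28.1 to 1941 CPM below, and 25 of 27 genes stood higher above without overlap inside every population, beside 16.3% of all genes, although only 2 passed the test; 23 were higher at an unadjusted p under 0.05, and DESeq2 called 17 higher. Fits that each lacked 1 library gave 0 (without col9a2+ 3, double-positive 3 and entpd5a+ 1) to 10 (without double-positive 1) calls. The digestive protease gene CPB1 (ENSDARG00000045442) stood at 3.85, 28.7, 44.5, 1.77 and 6.17 CPM below and 202, 180.2, 379 and 186 CPM above (3.97 ± 1.04), and CPA1 (ENSDARG00000030915) at 1.11 to 11.3 and 60.3 to 121 (3.93 ± 0.78). Their calls were lost in 7 and 3 of 9 fits with a library left out (3.31 to 4.76 and 3.60 to 4.16). CPB1 was 4.76 without col9a2+ 2, 5.22 without double-positive 1, 4.57 without double-positive 3 and 3.31 without entpd5a+ 1, and CPA1 was 4.67 without col9a2+ 2. Col9a2+ 2 and double-positive 1 carry more of both than the other libraries below. The liver list had 0 calls of 16 by edgeR (0 at an unadjusted p under 0.05 and 0 by DESeq2) and summed levels of 163 to 1294 CPM above and 311 to 1267 below. The part of pancreatic RNA in the other differences was not tested.

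The remaining large rises fall outside the lists. The gene mid1ip1a, a regulator of fatty acid synthesis, stood at 6.02, 6.23, 0.0224, 0 and 0.946 CPM below and 79.05, 7.86, 30.8 and 17.7 CPM above (5.21 ± 0.75; between 4.16 without double-positive 3 and 6.11 without col9a2+ 3). The myo-inositol transporter gene slc5a3b, which cells under osmotic stress induce, rose from 2.96, 2.78, 1.096, 3.82 and 1.98 to 25.9, 30.7, 54.6 and 123 CPM (4.04 ± 0.57; 3.41 without entpd5a+ 1). Both kept the call without each library in turn. The rule that named them required a call and higher values above inside every population, so nothing is read from these traits. In the double-positive libraries below, mid1ip1a was near the floor, at 0.0224 and 0 CPM, so little can be read from that population.

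Taking the sides into account changed what could be seen between populations. In an F test over the 3 populations 1792 genes (9.41%) were called without a term for the side and 2485 (13.1%) with it, and the common dispersion, the squared relative spread between replicates, fell from 0.588 to 0.474. In the latter fit 330 genes were called both for population and for side, which is 17.8% of the side's calls and 13.3% of the population's.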

How the data were processed

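Ultra-low-input RNA libraries were made from sorted cells, per the labels' protocols. The genome build GRCz10 and the tools HISAT2 and HTSeq are named, per the submitters' processing notes; versions and strand setting are not given in the sources used here, so overlapping genes on opposite strands may share reads. The deposited files hold raw counts for 32266 gene IDs, of which 26433 (81.9%) had a name in the name table, often in capitals without the zebrafish paralog letter; names were looked up by ID.

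The test used edgeR 4.0.16 under R 4.3.3: filterByExpr on the 3 populations (19039 genes), TMM factors, robust quasi-likelihood fit with population and a term for a total above 60000000 counts (5 residual degrees of freedom), two-sided F test and Benjamini-Hochberg adjustment over all genes, threshold 0.05. Standard errors are the absolute log2 difference divided by the square root of F. The fit was tested on simulated data. Shares are percentages of raw counts, and equal depth means counts thinned at random to about 39955994. Reads without molecular identifiers are not independent molecules, and depth was 39955994 to 81471212 counts. Alternatives were RLE and upper-quartile scaling, 2 filters, DESeq2 1.42.0, thinned counts, no population term, 2 populations alone, a minimum fold of 1.5, the replicate number as a block and each library left out.

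Named genes are all members of 7 chaperone lists that were called or averaged 20 CPM on either side, up to 4 called members of every other list by adjusted p, the 10 called genes highest and the 10 lowest by log2 difference that have a proper name, at least 20 CPM and no overlap inside any population, and the sort genes; values are given for part of them. Genes outside this rule were chosen after their values were seen: ATF3, JUNB, egr1, HES1, HES4, HES6, HEY1, her7, HMOX1, NFE2L2, SQSTM1, HSPA5, HSP90B1, XBP1, MT-CO1, NDUFS1, SDHA, RPL3, POLR2A, POLR2B, POLR2K, PSMD1, PER2, cry3a, nr1d2a, tbxta and ubc. The members and all lists were chosen with earlier results of these data known. List entries that matched several genes or none (31 and 64) were dropped. Some genes are not reported here, and no sequence or coordinate is given.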

Additional observations from a re-analysis of the deposited data

Results flagged for a closer look

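Libraries far from the rest of their side were sought in 258 groups of values from 132 genes (each side apart, where the highest value reached 5 CPM) and in 10 groups of library measures, and 40 such values were found. A chance rate of about 1 in 20 would hold only for normal values from a single population. These groups span 3 populations, so the number found is not set against chance. No cause was tested.

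Of these values 17 belong to entpd5a+ 3, the highest of the 4 libraries above in HSPA4 (4078 CPM), HSPBP1 (705 CPM), STIP1 (1477 CPM), CHORDC1 (213 CPM), tomm34 (153 CPM), FKBP4 (483 CPM), LONP1 (236 CPM), HSPH1 (196 CPM) and AHSA1 (881 CPM). The same library led in HSP90B1 (1309 CPM), XBP1 (2835 CPM), HMOX1 (39.0 CPM), hsp90aa1.1 (367 CPM), dnaja1 (184 CPM), dnajb1a (63.6 CPM), the low-count HSPA8 (90.2 CPM) and PFDN4 (25.5 CPM). In PFDN4 the next library above lay close, at 23.2 CPM. The naming rule took chaperone genes into the search, so nothing is read from the kinds of gene flagged.

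Col9a2+ 3 was the highest of the libraries above in COL9A2 (9398 CPM), the gene it was sorted for, and in MIA (89.96 CPM), tnxba (24.7 CPM), fgfbp2b (63.3 CPM), MFAP4 (5.56 CPM) and FOXJ1 (23.2 CPM). It also had the highest share of cytosolic ribosomal proteins there (2.66%) and the lowest DUSP2 (232 CPM). Double-positive 3 led in SESN1 (659 CPM) and HES4 (7470.1 CPM), and entpd5a+ 2 in the pancreatic genes CPA1 (121 CPM) and CPB1 (379 CPM).

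Among the libraries below, double-positive 1 was the highest in hsp70.1 (165 CPM), HSPA2 (172 CPM), HSPB1 (333 CPM), HSPA4 (124 CPM) and HMOX1 (14.7 CPM). Double-positive 2 was the highest in dnaja1 (20.7 CPM) and HES6 (29.1 CPM), and col9a2+ 1 in HSP90B1 (403 CPM). Entpd5a+ 1 was the highest in CCT4 (420.4 CPM), MT-ND1 (1293 CPM) and the bone gene scpp5 (387 CPM).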

How the results depend on the processing

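The count of called genes, 1854, moved by over 1.5 times with DESeq2 (4054), without the population term (1185), when entpd5a+ libraries were dropped (820) and with a minimum fold of 1.5 (717). It lay between 1693 and 2234 with the other scalings, filters and equal depth, and between 421 and 2032 with single libraries left out. With the replicate block 0 genes were called, with 2183 at an unadjusted p under 0.05, and 1845 of the 1854 kept their sign. All libraries numbered 3 lie above and all numbered 1 below, so the block leaves the side to be estimated from number 2. Same-numbered libraries on the same side deviated together (r across genes from 0.13 to 0.332), and the 2 same-numbered pairs that lie on different sides did not (-0.106 and -0.103). Among the libraries below, r was 0.13 to 0.219 for pairs of the same number and -0.005 to 0.155 for different numbers. Among those above it was 0.148 to 0.332 and 0.201 to 0.234. Deviations in a population sum to 0 for each gene, so negative values follow in part from positive ones. Nothing in the labels says that a number marks a shared fish or day, so the numbers were not taken as pairs, and whether they are was not settled. The count of genes that differ between populations in the contrast, 0, was 223 with DESeq2 and 1 with no filter, and 0 in every other fit run, single libraries left out included; it could not be fitted without col9a2+ 3, double-positive 3 or entpd5a+ 1. With single libraries left out, the share of the 50 most abundant genes differed by -1.41 to 2.73 percentage points, that of mitochondrially encoded genes by -2.63 to -0.058, and genes detected at equal depth by 331 to 1309 (1214 at unequal depth, chosen after seeing the data). Of the 118 called genes examined by name, 117 kept the call with counts at equal depth and 62 without each library in turn. Reads without molecular identifiers are not independent molecules, and some named genes held few counts, so depth alone does not make counting error small. The 9 libraries also limit the precision.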

Other observations

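The clock list and the Sm and LSm list were chosen after their values were seen, and the values below are a description. Of 37 clock-related genes tested, 5 were higher and 0 lower (3.52% and 6.21% of all genes), with a median of 0.80 and 2 (without double-positive 3) to 6 (without entpd5a+ 3) rises when single libraries were left out. PER2, a repressor of the circadian clock, stood at 68.03, 71.5, 117, 104 and 38.2 CPM in the libraries below and 182, 291, 152 and 159 CPM above (1.60 ± 0.18, adjusted p = 0.00199), without overlap. The cryptochrome gene cry3a rose from between 36.95 and 64.2 to between 105 and 194 CPM (1.54 ± 0.19), and nr1d2a, a nuclear receptor of the clock, by 1.27 ± 0.18 (its call was lost without double-positive 3, at 1.17). The times of day at which cells were collected are not given in the labels.

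Genes for the Sm and LSm proteins, small rings at the core of splicing and mRNA decay particles, were lower in 16 and higher in 0 of 22, with a median of -1.54. Cell cycle genes were lower in 5 (13.9%, beside 6.21% of all genes) and higher in 0 of 36. Their median was -0.28, with 0 to 5 falls with single libraries left out. CDK2, which drives entry into DNA replication, fell by 0.92 ± 0.17, a call lost without each of col9a2+ 3, double-positive 3 and entpd5a+ 1 (-0.98 to -0.87). The autophagy receptor SQSTM1 was at 2.75 ± 0.59, from between 30.8 and 119 to between 144 and 844 CPM above, and lost its call without each of col9a2+ 1, col9a2+ 3, double-positive 3 and entpd5a+ 1 (2.22 to 3.13). The glycolytic regulator PFKFB3 was at 2.34 ± 0.54, lost in 6 of 9 fits with a library left out (1.76 to 2.76), in a list of 47 glycolysis and hypoxia genes of which 2 were higher (4.26%) and 0 lower, near the shares of all genes. In the apoptosis list 2 were higher (7.14%) and 1 lower (3.57%) of 28, beside 3.52% and 6.21% of all genes. Outside that list pmaip1, which encodes the death activator NOXA, was at 2.15 ± 0.33 (call lost without double-positive 3, at 1.97).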
